A study of Homo sapiens with 28 samples.

Results

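In GP5d cells, an established human colon adenocarcinoma line, 1421 of the 11122 HNF4A peaks called under a control siRNA overlapped a KLF5 peak by at least 1 bp while overlapping peaks of at most 1 of JUND, MYC, REST and RFX2. These HNF4A and KLF5 co-bound sites were chosen by the control lists of those 6 factors, so their HNF4A and KLF5 occupancy in control cells is the definition of the set and not a result. What the choice did not use was the control occupancy of the cohesin subunits RAD21 and SMC3, the cohesin loader NIPBL, CTCF and H3K4me1, and every library from cells given siRNA against RAD21 (siRAD21). At these sites NIPBL was the most frequent of the 4 architectural proteins. It exceeded its share at HNF4A peaks without KLF5 by 41.0 percentage points within strata of peak strength and 38.4 within strata of peak width. With summits within 250 bp the shares were 48.7% and 16.7%. MYC was not held equal between these classes. Under siRAD21, HNF4A was called again at 42.5% of the sites and KLF5 at 12.7%. That gap narrowed to 7.60 points when siRAD21 lists of equal length were compared, and with equal lists it turned to −9.83 points at the 580 sites where KLF5 was the stronger control peak. Equal length left unlike cutoffs of −10 × log10(p), 115.86 for HNF4A and 50.05 for KLF5. With every list cut at 100, which left 407 co-bound sites, the gap was 31.2 points.

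HNF4A is a nuclear receptor that binds DNA as a homodimer and regulates genes of hepatocytes and of the intestinal epithelium. KLF5 is a zinc-finger factor of the Krüppel-like family that binds GC-rich elements and is highly expressed in the proliferating cells of intestinal crypts. Cohesin is a ring-shaped complex in which SMC3 and its partner SMC1A are closed by RAD21. NIPBL loads it onto chromatin, and CTCF, a zinc-finger protein that binds a long motif, holds it at many genomic positions. H3K4me1, histone H3 monomethylated at lysine 4, marks enhancers, both active and poised.

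Chromatin immunoprecipitation followed by sequencing was carried out on cells transfected with 50 nM of a non-targeting control siRNA or with an siRNA against RAD21 and harvested after 72 h. The labels give no further genetic change to either group, and both were the same cell line. Each of 11 targets had 1 peak list per siRNA, 22 lists in all, and nothing says that libraries came from separate cultures. A difference between siRNAs is therefore a difference between 2 libraries, with no replicate check and no test. The level of RAD21 RNA or protein was not analysed here, nor were the 6 IgG libraries as peak lists. The whole RAD21 list held 36204 peaks under the control siRNA and 19752 under siRAD21. Libraries had between 3629966 and 19926326 tags after filtering under the control siRNA and between 1747770 and 15263937 under siRAD21, and 9 of the 11 targets had fewer tags under siRAD21. The antibody number given for H3K4me1 is, from general knowledge, one sold for histone H3 as a whole, so H3K4me1 here means the library with that label. Intervals printed below are exact 95% binomial (Clopper-Pearson) intervals over sites unless another is named. They treat sites as independent and cover counting error only.

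HNF4A and KLF5 were both called at 1863 HNF4A peaks. Of these, 509 carried no peak of the other 4 factors and 912 carried 1, which together are the 1421 sites, whereas 423 carried 2 and 19 carried 3 and were left out. Where a further factor was present it was MYC, a helix-loop-helix factor, at 789 sites. JUND, an AP-1 subunit, was the further factor at 101 sites, the winged-helix factor RFX2 at 14 and the neuronal-gene repressor REST at 8. The sites thus consisted mainly of HNF4A and KLF5 alone or with MYC. Almost all were single pairs, since 1411 held 1 KLF5 peak and 10 held 2 or more. Another co-bound summit lay within 10000 bp of 125 sites and within 100000 bp of 432.

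The authors' peak scores describe the strength of the chosen peaks. The median −10 × log10(p) of HNF4A was 110.74 at the co-bound sites (lowest 50.08, highest 2303.9), against 91.58 at the 8732 HNF4A peaks with no KLF5 peak and at most 1 of the other 4 factors (KLF5-free peaks). Co-bound HNF4A peaks were also wider, with a median of 1748 bp against 1428 bp, and held a median of 52 tags against 34, while the median fold enrichment was 9.06 against 9.65. KLF5 peaks at the sites had a median −10 × log10(p) of 85.89 and a width of 1646 bp. The corresponding medians for the 5366 KLF5 peaks with no HNF4A peak and at most 1 other factor (HNF4A-free peaks) were 73.09 and 1415 bp. Because stronger and wider peaks overlap other peaks more easily, some comparisons below were also made within 5 strata of the control p-value and of peak width. Where no strata or classes of strength are named, neither strength nor width was held equal.

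Summit distances were taken only where the peaks overlapped, which bounds them. For HNF4A and KLF5 the overlap is the rule of the set, so their distance describes the choice and is not a result. The median distance between these 2 summits was 123 bp, with 44.7% within 100 bp and 71.4% within 250 bp. NIPBL was not used to choose the sites. Where it was called, its summit was a median of 110 bp from that of HNF4A, with 76.2% within 250 bp. RAD21 followed at a median of 161 bp and SMC3 at 186 bp, both with a tail of about 1 in 4 summits beyond 500 bp (25.2% and 25.7%). CTCF summits were farther away, at a median of 416 bp, and 44.2% of them lay beyond 500 bp. At KLF5-free HNF4A peaks the medians were 112 bp for NIPBL, 182.5 bp for RAD21, 185.5 bp for SMC3 and 411.5 bp for CTCF, so the medians of the 2 classes lay close together.

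**Figure D1:**
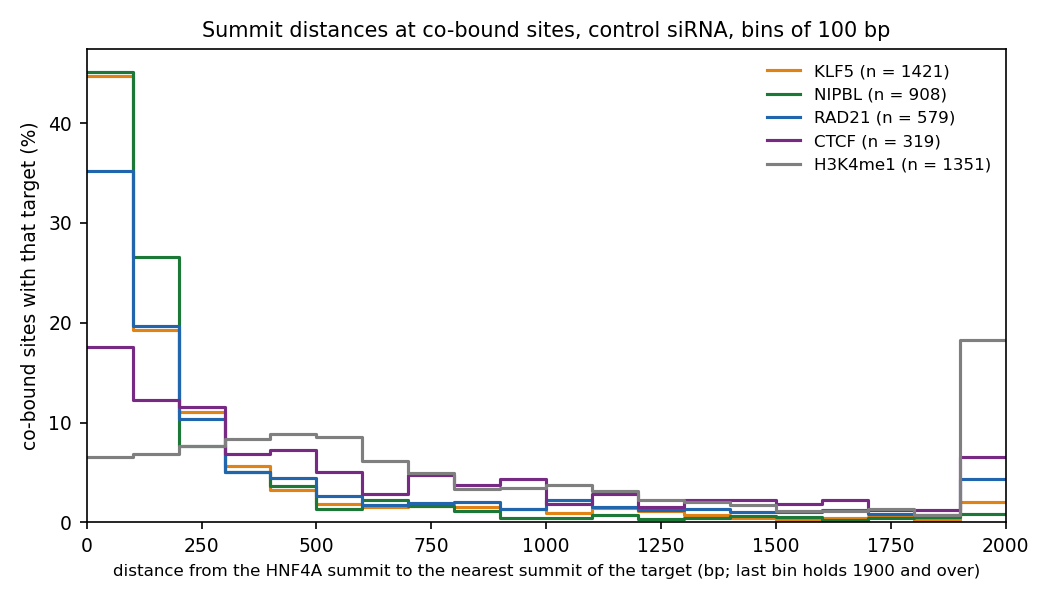
Distance in bp from the HNF4A summit of each co-bound site to the summit of the overlapping control peak of KLF5, NIPBL, RAD21, CTCF and H3K4me1, as the percent of sites per distance bin. KLF5 (median 123 bp) and NIPBL (110 bp) concentrate near 0, whereas CTCF (416 bp) is spread over the peak and beyond it. Only overlapping peaks are counted, and overlap with KLF5 is the rule of the set.

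In control cells the co-bound sites carried cohesin and its loader more often than HNF4A peaks did as a whole. NIPBL was called at 908 of 1421 sites (63.9%, 61.3 to 66.4), against 32.6% of all control HNF4A peaks. Its control library was the deepest, with 19926326 tags. Its list held 0 peaks at a false discovery rate under 5%, against 30796 for RAD21 and 33726 for SMC3. SMC3 was called at 711 sites (50.0%, 47.4 to 52.7), with 29.5% over all HNF4A peaks, and RAD21 at 579 (40.7%, 38.2 to 43.4), with 26.3%. NIPBL thus exceeded both cohesin subunits at these sites, whereas at KLF5-free HNF4A peaks the 3 shares were alike (21.9% for NIPBL, 22.2% for SMC3 and 20.3% for RAD21). CTCF was called at 319 sites (22.4%, 20.3 to 24.7), against 15.0% of all HNF4A peaks and 12.8% of KLF5-free peaks. H3K4me1 regions covered 1351 sites (95.1%, 93.8 to 96.1), against 87.8% of all HNF4A peaks and 85.6% of KLF5-free peaks.

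The order was not that of KLF5 peaks on their own. At the 5366 HNF4A-free KLF5 peaks NIPBL was called at 24.6%, SMC3 at 29.9%, RAD21 at 22.7%, CTCF at 21.9% and H3K4me1 at 71.1%. CTCF at the co-bound sites was therefore near its level at KLF5 peaks without HNF4A, while NIPBL, SMC3 and RAD21 were above both single-factor classes.

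Within the 5 strata of HNF4A p-value, the co-bound sites exceeded KLF5-free HNF4A peaks by 41.0 points for NIPBL (95% interval from the Mantel-Haenszel difference, 38.3 to 43.6). The differences were 27.1 points for SMC3 (24.3 to 29.9), 19.7 for RAD21 (17.0 to 22.4), 9.43 for CTCF (7.16 to 11.7) and 7.73 for H3K4me1 (6.42 to 9.03). Within strata of peak width they were 38.4, 25.1, 18.3, 7.56 and 5.09 points in the same order, so none of the 5 vanished at like width. Neither set of strata held the further factors equal: control MYC lay at 55.5% of co-bound sites and at 17.5% of KLF5-free peaks. The part of MYC in these differences was not tested. Requiring the target's own summit within 250 bp of the HNF4A summit lowered every share. At co-bound sites the order of the 4 proteins was the same as by overlap, whereas at KLF5-free peaks NIPBL now came ahead of SMC3. NIPBL was then present at 48.7% of co-bound sites against 16.7% of KLF5-free peaks, SMC3 at 29.2% against 12.9%, RAD21 at 24.6% against 12.0% and CTCF at 8.02% against 4.84%. Only H3K4me1 went the other way on that measure, at 16.7% against 20.3%, with summits a median of 655 bp from the HNF4A summit at co-bound sites.

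**Figure D2:**
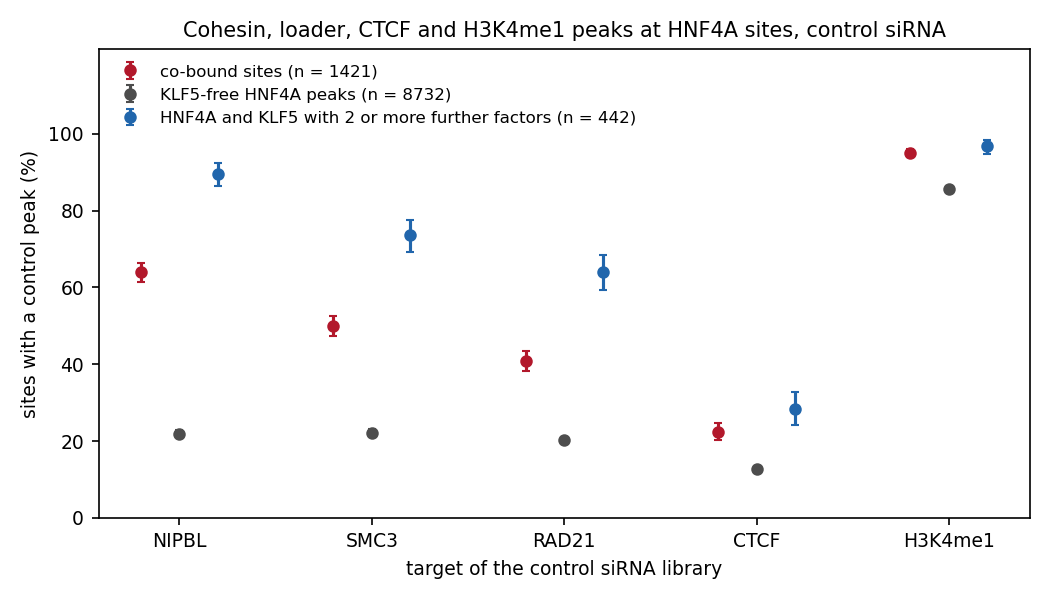
Percent of control HNF4A peaks that overlapped a control peak of NIPBL, SMC3, RAD21, CTCF and H3K4me1, with 95% binomial intervals. The classes are co-bound sites, KLF5-free HNF4A peaks, and HNF4A and KLF5 sites with 2 or more further factors (n = 442). NIPBL at co-bound sites (63.9%) lies between KLF5-free peaks (21.9%) and sites with 2 or more further factors (89.6%). CTCF at co-bound sites (22.4%) lies between 12.8% and 28.3% in the same 2 classes.

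H3K4me1 regions at the co-bound sites were also long. The region over a co-bound site had a median length of 5442 bp, against 4116 bp over KLF5-free HNF4A peaks and 2384 bp over the whole H3K4me1 list. A long region overlaps more peaks by position alone, and the part this played in the shares was not tested.

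The values on either side of the limit of 1 further factor form a gradient. NIPBL was called at 44.4% of the 509 sites with no further factor, at 74.8% of the 912 with 1 and at 89.6% of the 423 left out with 2. The same 3 classes had SMC3 at 33.0%, 59.5% and 73.5%, and RAD21 at 28.3%, 47.7% and 64.5%. CTCF rose less, from 16.7% to 25.7% and 28.1%. H3K4me1 was near its ceiling throughout, at 91.9%, 96.8% and 96.9%. Even the sites with HNF4A and KLF5 alone held more NIPBL than the KLF5-free HNF4A peaks, which were themselves allowed 1 further factor.

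The 2 cohesin subunits overlapped but did not coincide. RAD21 and SMC3 were both called at 465 sites (32.7%), RAD21 alone at 114, SMC3 alone at 246 and neither at 596 (41.9%). Most cohesin lay apart from CTCF, since 575 sites (40.5%) had a cohesin subunit without CTCF and 250 had both. A further 69 sites had CTCF without cohesin. RAD21 was nevertheless more frequent where CTCF was called, at 67.7% of those sites against 32.9% of the others, and SMC3 was at 75.5% against 42.6%. NIPBL differed less with CTCF, at 72.1% against 61.5%, and more with cohesin, at 77.2% of sites with a cohesin subunit against 45.5% of those without. NIPBL was called without either subunit at 271 sites. All 4 proteins were called together at 157 sites and none of them at 299.

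Under siRAD21 the cohesin peaks of the control list were mostly absent at these sites. A RAD21 peak was found again at 124 of the 579 sites that had one (21.4%, 18.1 to 25.0), an SMC3 peak at 89 of 711 (12.5%, 10.2 to 15.2) and a NIPBL peak at 171 of 908 (18.8%, 16.3 to 21.5). CTCF was found again at 171 of 319 (53.6%, 48.0 to 59.2). H3K4me1 was found again at 1295 of 1351 (95.9%, 94.7 to 96.9). H3K4me1 regions thus remained called at nearly all sites and CTCF at more than 1 in 2, whereas cohesin and NIPBL peaks were called again at about 1 in 5 or fewer. The number of tags under siRAD21 relative to control was 0.346 for CTCF, 0.352 for NIPBL, 0.531 for SMC3, 0.615 for RAD21 and 0.528 for H3K4me1. CTCF was set against another IgG library (ratio 0.841) than the other 4 (0.460). The part of depth in these differences was not tested.

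Over all control HNF4A peaks the corresponding shares were 23.4% for RAD21, 14.5% for SMC3, 14.4% for NIPBL, 56.1% for CTCF and 90.0% for H3K4me1. At KLF5-free HNF4A peaks they were 25.8% for RAD21 (23.8 to 27.9), 16.3% for SMC3 (14.6 to 18.0), 9.79% for NIPBL (8.49 to 11.2), 56.9% for CTCF (53.9 to 59.8) and 88.4% for H3K4me1 (87.7 to 89.1). Co-bound sites thus had higher shares than KLF5-free peaks for NIPBL and H3K4me1, with intervals that did not overlap, and lower ones for RAD21, SMC3 and CTCF, with intervals that did. Some sites gained a peak under siRAD21. RAD21 did so at 39 of the 842 sites without a control peak (4.63%, with 2.34% over all HNF4A peaks), SMC3 at 17 of 710 (2.39%, with 1.22%), NIPBL at 52 of 513 (10.1%, with 4.16%) and CTCF at 60 of 1102 (5.44%, with 2.22%). For each of the 4 proteins, new peaks were thus more frequent at co-bound sites than over all HNF4A peaks. The shares found again and the shares of new peaks were not compared within strata of strength or width.

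Counting old and new peaks together, the siRAD21 lists placed RAD21 at 11.5% of the co-bound sites (7.88% of all HNF4A peaks), SMC3 at 7.46% (5.13%) and NIPBL at 15.7% (7.51%). CTCF was at 16.3% (10.3%) and H3K4me1 at 93.4% (81.3%). NIPBL fell furthest in points, from 63.9% to 15.7%. The H3K4me1 regions over the sites had a median length of 6096 bp under siRAD21, against 5442 bp in control cells.

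**Figure D3:**
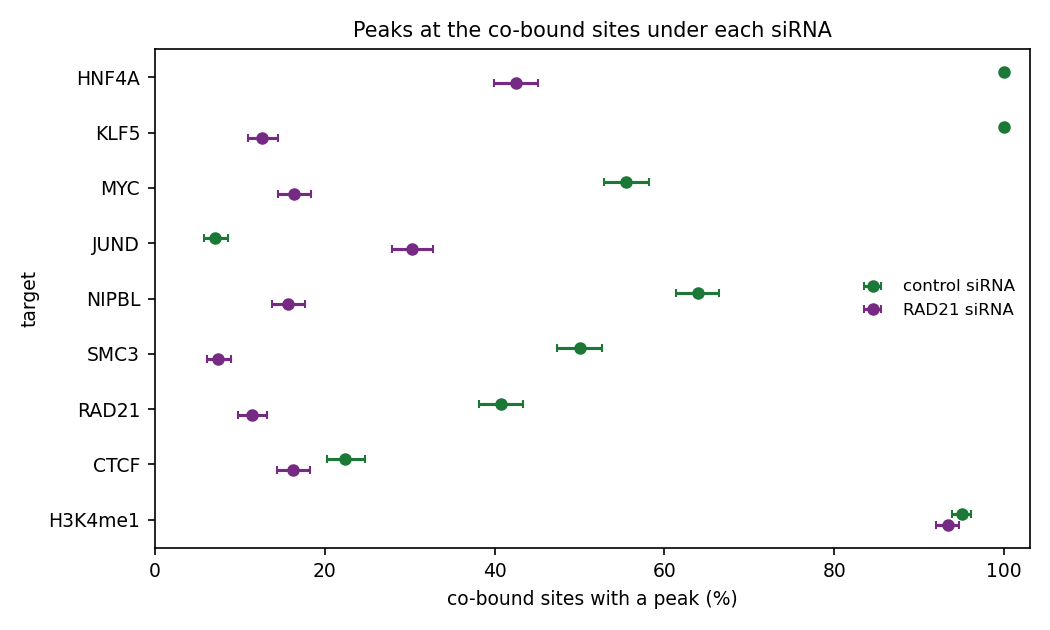
Percent of the 1421 co-bound sites that overlapped a peak of each target in the control and the siRAD21 lists, with 95% binomial intervals (1 library per target and siRNA). RAD21, SMC3 and NIPBL drop from 40.7%, 50.0% and 63.9% to 11.5%, 7.46% and 15.7%, whereas H3K4me1 stays near 95.1% and 93.4%; control HNF4A and KLF5 are at 100% by the choice of sites.

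Of the 2 factors that define the sites, HNF4A was the one more often called again. A siRAD21 HNF4A peak overlapped 604 sites (42.5%, 39.9 to 45.1), against 33.4% of all control HNF4A peaks. A siRAD21 KLF5 peak overlapped 180 sites (12.7%, 11.0 to 14.5), against 3.13% of all control HNF4A peaks, most of which had no KLF5 peak to begin with, and 10.2% of all control KLF5 peaks. The difference at the same sites was 29.8 points (27.0 to 32.7, Wald interval for paired shares). Both factors were found again at 111 sites (7.81%), HNF4A without KLF5 at 493 (34.7%), KLF5 without HNF4A at 69 (4.86%) and neither at 748 (52.6%, 50.0 to 55.3). Sites with 2 or more further factors, which were left out of the set, had nearly the same outcomes, at 9.05%, 32.8%, 5.43% and 52.7% of 442. Among the 562 co-bound sites that kept exactly 1 of the pair, HNF4A was the one kept at 87.7% (84.7 to 90.3). No peak of either factor was called within 1000 bp at 725 sites (51.0%).

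Where either factor was found again, the other was too more often than elsewhere. KLF5 was called under siRAD21 at 18.4% of sites where HNF4A was and at 8.45% of sites where it was not, and HNF4A at 61.7% of sites where KLF5 was and at 39.7% of the others. Where HNF4A was found again its summit had a median shift of 73.5 bp, within 100 bp at 59.3% of sites. The siRAD21 KLF5 summit lay a median of 143 bp from the control HNF4A summit, against 123 bp for the control KLF5 summit.

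The size of the gap between the factors, and in part its direction, changed with the length of the 2 siRAD21 lists. The KLF5 library under siRAD21 had 0.355 of its control tags (3286941 against 9257960) and the HNF4A library 0.558 (4993835 against 8949817). The whole KLF5 list shrank from 7791 to 1781 peaks and the HNF4A list from 11122 to 7082. With the siRAD21 HNF4A list shortened to its 1781 strongest peaks, HNF4A was found again at 20.3% of sites and KLF5 at 12.7%, a difference of 7.60 points (5.07 to 10.1). The shortened HNF4A list reached down to a −10 × log10(p) of 115.86, whereas the full KLF5 list reached 50.05. With every list cut at 100, which left 407 co-bound sites, the difference was 31.2 points (26.2 to 36.2).

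HNF4A was also the stronger control peak of the pair at 841 sites, where it was found again at 53.6% and KLF5 at 9.27%. At the 580 sites where the KLF5 p-value was the stronger, HNF4A was still ahead in the deposited lists, at 26.4% against 17.6%, a difference of 8.79 points (4.57 to 13.0). With lists of equal length at those 580 sites the direction turned: HNF4A was found again at 7.76% and KLF5 at 17.6%, a difference of −9.83 points (−13.3 to −6.39). The cutoffs of those lists were unlike (115.86 for HNF4A and 50.05 for KLF5), so the turn cannot show which factor stayed. Depth, list length and an effect of the siRNA on one factor more than the other cannot be told apart with 1 library of each.

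Sites where both control peaks fell in the same class of −10 × log10(p) were also compared. Between 50 and 100 there were 395 such sites, with HNF4A found again at 18.2% and KLF5 at 5.57%. Between 100 and 200 there were 108, with 44.4% and 18.5%. With equal list lengths these became 3.29% (1.76 to 5.56) and 5.57% (3.52 to 8.31), then 14.8% (8.71 to 22.9) and 18.5% (11.7 to 27.1), so that KLF5 had the higher share but the intervals overlapped. In the equal lists an HNF4A peak counted from 115.86 and a KLF5 peak from 50.05. HNF4A in the class of 50 to 100 thus had to pass its own control value to count, so the equal lists cannot decide the direction there. In the 14 sites between 200 and 400, HNF4A was found again at 11 and KLF5 at 6, or at 5 and 6 with equal lists. The 5 sites with both at 400 or more held HNF4A again at 5 and KLF5 at 2 under either treatment of the lists. In this top class the direction did not turn.

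Peak strength in control cells went with the share found again for both factors. HNF4A was found again at 19.5% of sites with a control −10 × log10(p) of 50 to 100, at 41.6% between 100 and 200, at 68.5% between 200 and 400 and at 93.9% of the 198 sites at 400 or more. KLF5 went from 6.26% to 16.2%, 28.2% and 59.5% over the same classes, the last holding 42 sites. The strongest HNF4A peaks were thus nearly all called again, and the strongest KLF5 peaks at more than 1 in 2 sites. The corresponding classes of HNF4A-free KLF5 peaks had 4.35%, 14.1%, 33.6% and 69.2%, and those of KLF5-free HNF4A peaks 13.6%, 35.3%, 66.4% and 91.4%.

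**Figure D4:**
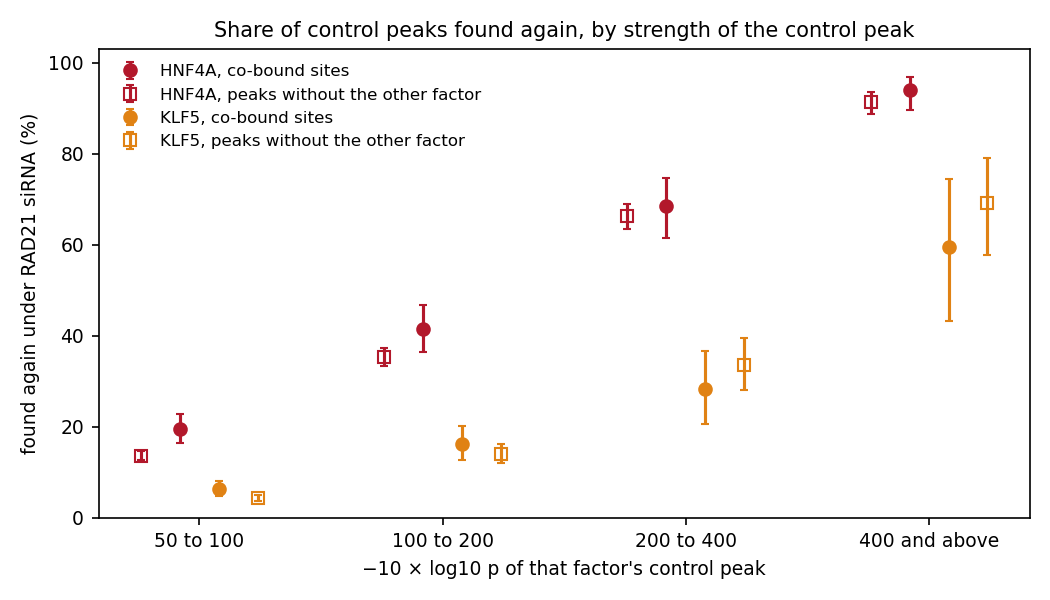
Percent of control peaks with a siRAD21 peak of the same factor, by class of control −10 × log10(p), with 95% binomial intervals, for HNF4A and KLF5 at co-bound sites and at peaks without the other factor. The share climbs with strength in every line, to 93.9% for HNF4A and 59.5% for KLF5 at co-bound sites in the top class.

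HNF4A peaks were found again more often at co-bound sites than at KLF5-free peaks, by an amount that changed with the strata. The shares were 42.5% and 31.4%, a difference of 11.1 points without strata (8.40 to 13.9), 11.3 within strata of fold enrichment (8.75 to 13.8) and 5.45 within strata of p-value (3.09 to 7.81). Within strata of peak width the difference was 2.28 points and its interval included 0 (−0.384 to 4.95). For KLF5, 12.9% of its peaks at co-bound sites and 8.85% of HNF4A-free peaks were found again, a difference of 4.03 points without strata (2.13 to 5.93) and 3.35 within strata of fold enrichment (1.45 to 5.24). Within strata of p-value the difference was 1.25 points (−0.576 to 3.09) and within strata of width 1.13 (−0.733 to 2.99), both with intervals that included 0.

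Sites with cohesin in control cells did not keep HNF4A more often. Within strata of HNF4A p-value, the share of sites with HNF4A found again differed by −6.41 points between sites with and without control RAD21 (−10.8 to −2.02), by −5.52 points for SMC3 (−9.87 to −1.16) and by −7.66 points for NIPBL (−12.2 to −3.10), each lower where the protein had been called. Within strata of width the intervals were −9.62 to 0.297 for RAD21, −9.75 to 0.0135 for SMC3 and −11.8 to −1.65 for NIPBL, so only the NIPBL interval stayed below 0 on both. For CTCF the difference was 0.0694 points (−5.22 to 5.36). KLF5 was found again less often where RAD21 had been called (−5.19 points, −8.52 to −1.87) or SMC3 (−3.79, −7.13 to −0.458), and for NIPBL the difference was 1.39 points (−1.91 to 4.69). Within strata of width the KLF5 intervals were −7.37 to −0.681 for RAD21, −6.39 to 0.406 for SMC3 and 0.781 to 7.40 for NIPBL, so the SMC3 interval then included 0 and the NIPBL interval no longer did. These strata of width were chosen after seeing the data.

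Sites that kept a cohesin or NIPBL peak under siRAD21 were a different group. Among the 908 sites with control NIPBL, HNF4A was found again at 67.3% of those with NIPBL found again and 35.0% of the rest, a difference of 31.1 points within strata of HNF4A p-value (24.2 to 38.0) and 29.1 within strata of width (21.5 to 36.7). KLF5 showed the same direction, at 32.2% against 10.7% of its peaks, a difference of 19.5 points (12.5 to 26.6) within strata of p-value and 18.6 (11.5 to 25.8) within strata of width. HNF4A was found again more often also where SMC3 was, by 21.9 points (12.9 to 30.9, or 5.57 to 26.7 in strata of width), and where RAD21 was, by 14.8 points (6.48 to 23.1), although the RAD21 interval in strata of width included 0 (−1.55 to 17.4). For KLF5 the intervals with RAD21 (−2.99 to 10.0) and SMC3 (−8.34 to 5.55) included 0. With CTCF both did, at −3.02 to 15.8 for HNF4A and −13.0 to 2.53 for KLF5. The siRAD21 libraries of different targets were each made once, and whether they share a preparation of chromatin is not stated.

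The sites grouped by what remained showed these patterns side by side. Under siRAD21, NIPBL was called at 50.5% of the 111 sites that kept both factors, at 20.3% of the 493 with HNF4A alone, at 21.7% of the 69 with KLF5 alone and at 6.95% of the 748 with neither. CTCF was flat across the same classes, at 15.3%, 18.7%, 11.6% and 15.2%. RAD21 under siRAD21 was at 18.9%, 12.6%, 18.8% and 8.96%, and SMC3 at 12.6%, 10.1%, 4.35% and 5.21%. In control cells the sites that later kept both factors had held the least RAD21, at 28.8% (20.6 to 38.2). The other classes had 40.8% (36.4 to 45.3), 42.0% (30.2 to 54.5) and 42.4% (38.8 to 46.0). The interval of sites that kept both overlapped those of HNF4A alone and KLF5 alone and lay below that of neither. Control NIPBL at the sites that later kept both was 73.0%, with 59.2%, 73.9% and 64.7% in the others. The classes also differed in strength: median control −10 × log10(p) of HNF4A was 175.14, 238.64, 77.26 and 81.175 in that order, and of KLF5 162.55, 81.59, 153.51 and 82.965. They differed in width too. The median HNF4A peak was 2218, 1950, 1727 and 1545.5 bp wide in that order, and the median KLF5 peak 2168, 1685, 2033 and 1543 bp. The classes were not compared within strata, and the part of width and strength in these shares was not tested.

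**Figure D5:**
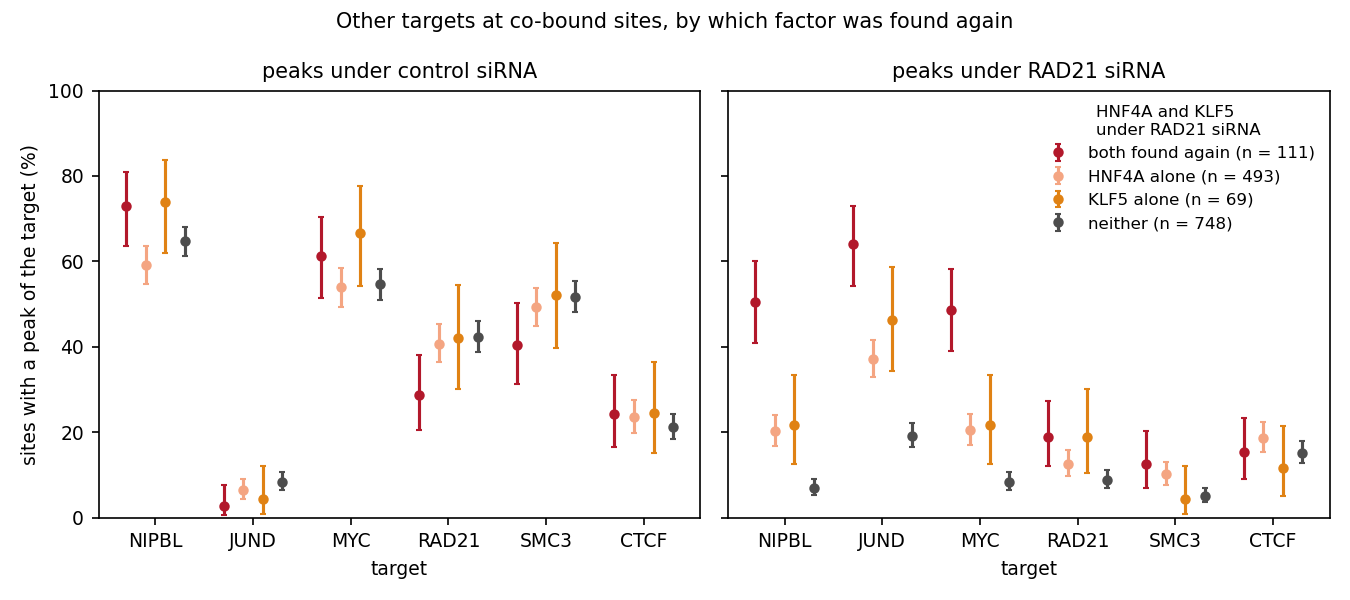
Percent of sites with a peak of each target in the control and siRAD21 lists, with 95% binomial intervals, for sites that kept both factors (n = 111), HNF4A alone (493), KLF5 alone (69) or neither (748) under siRAD21. NIPBL and JUND under siRAD21 are highest at sites that kept both (50.5% and 64.0%) and lowest at sites that kept neither (6.95% and 19.3%), while CTCF stays between 11.6% and 18.7%. The classes also differ in the strength and width of their control peaks.

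JUND and MYC under siRAD21 were not part of the choice, but their control peaks were limited by it. A siRAD21 JUND peak lay at 430 co-bound sites (30.3%), against 17.2% of all control HNF4A peaks and 11.7% of KLF5-free peaks. Within strata the excess over KLF5-free peaks was 17.9 points by p-value (15.4 to 20.4) and 14.4 by width (11.9 to 16.8). Of the 1320 co-bound sites without control JUND, 388 (29.4%, 26.9 to 31.9) had a JUND peak under siRAD21, and the corresponding share of KLF5-free peaks was 10.7% (10.1 to 11.4). The siRAD21 JUND library had 2.02 times the tags of its control. At a false discovery rate under 5% the control JUND list held 0 peaks and the siRAD21 list 718 of 12319. The new JUND peaks were not compared within strata, and the part of this depth in them was not tested. MYC had nearly equal tag numbers (ratio 1.02), but its IgG library had a ratio of 0.460. Its peaks at a false discovery rate under 5% numbered 13589 under the control siRNA and 936 under siRAD21. It was found again at 175 of 789 sites (22.2%, 19.3 to 25.2). The corresponding share was 19.2% (17.9 to 20.6) over all HNF4A peaks and 15.4% (13.6 to 17.3) at KLF5-free peaks. MYC lay at 16.4% of all co-bound sites under siRAD21, against 8.12% of all HNF4A peaks. In the control lists MYC had already been more frequent at co-bound sites, at 55.5% against 29.4% of all HNF4A peaks. REST was at 1.20% (1.03% of all HNF4A peaks) and RFX2 at 1.20% (0.575%). Across the 4 outcome classes JUND was at 64.0%, 37.1%, 46.4% and 19.3% and MYC at 48.6%, 20.5%, 21.7% and 8.42%, in the order both, HNF4A alone, KLF5 alone and neither.

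HNF4A and KLF5 also met at positions outside the set under siRAD21. The siRAD21 lists held 471 HNF4A peaks that overlapped a KLF5 peak, which was 6.65% (6.08 to 7.26) of the 7082 siRAD21 HNF4A peaks. Of these, 110 (23.4%, 19.6 to 27.4) overlapped one of the 1421 sites. A control HNF4A peak lay at 47.3% of them, a control KLF5 peak at 58.0% and both at 31.0%. Most pairs called under siRAD21 were therefore not pairs in the control lists.

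Single regions show what these shares stand for. They are given in hg18, the build of the deposited files, and were taken by the smaller of the HNF4A and KLF5 −10 × log10(p) values within each outcome, from the top down. No annotation of that build was used here, so genes are not named. The strongest site that kept both factors was on chromosome 16 from 84232144 to 84237621. HNF4A there had a control −10 × log10(p) of 512.63 with 340 tags and KLF5 741.11 with 388 tags, the summits 88 bp apart. Under siRAD21 the values were 225.36 with 75 tags and 253.72 with 51 tags. NIPBL and MYC were called under both siRNAs and RAD21, SMC3 and CTCF under neither. At the next site, on chromosome 22 from 45515718 to 45520009, the 2 summits were 1606 bp apart, so overlap of peaks does not always mean overlap of summits. Both factors were kept there, KLF5 with 12 tags.

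The third of this class, on chromosome 11 from 118292236 to 118298525, was at the same time the strongest site with RAD21, SMC3, NIPBL and CTCF together in control cells. Under siRAD21 RAD21 and SMC3 were no longer called, whereas HNF4A, KLF5, NIPBL, CTCF, MYC and H3K4me1 were, and JUND was new. HNF4A went from a −10 × log10(p) of 793.58 to 615.61 and KLF5 from 372.76 to 69.04. The fourth, on chromosome 1 from 200319890 to 200324724, showed how near to the limit of detection a kept KLF5 peak could be: KLF5 had 387 tags in the control library and 8 under siRAD21, with a −10 × log10(p) of 50.07 against the list's minimum near 50.

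Among sites with HNF4A alone, the strongest was on chromosome 14 from 104223558 to 104226639, with 272 control HNF4A tags and 286 KLF5 tags. Under siRAD21 it held 126 HNF4A tags and no KLF5 peak within 1000 bp. None of RAD21, SMC3 and NIPBL was called there in control cells. The next was on chromosome 10 from 5576914 to 5581574, and after it came one on chromosome 2 from 70409173 to 70411462, both with NIPBL and no RAD21 or SMC3 in control cells. On chromosome 9 from 33741332 to 33743549 the summits of the 2 factors were 23 bp apart and HNF4A fell from 212 to 56 tags while KLF5, with 135 control tags, was not called. At each of the 4 sites KLF5 had more than 100 control tags and was not called under siRAD21. Its siRAD21 library had 0.355 of its control tags, and the part of depth was not tested.

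The reverse outcome occurred at weaker HNF4A peaks. On chromosome 2 from 47390146 to 47392236, HNF4A had 163 control tags and KLF5 193, and under siRAD21 only KLF5 was called, with 39 tags. On chromosome 20 from 42416770 to 42419298 the control values of −10 × log10(p) were 160.03 for HNF4A and 560.91 for KLF5, and KLF5 remained with 30 tags. None of the 4 architectural proteins was called at that site under either siRNA. On chromosome 3 from 57932063 to 57934583, all of RAD21, SMC3, NIPBL and CTCF were called in control cells and none of them under siRAD21, where KLF5 and H3K4me1 remained. The other of this class, on chromosome 20 from 14148191 to 14150015, had SMC3 and NIPBL in control cells and KLF5, JUND and H3K4me1 under siRAD21.

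At some strong control peaks neither factor was called under siRAD21. On chromosome 10 from 90135062 to 90136894, HNF4A had a control −10 × log10(p) of 544.03 with 148 tags and KLF5 204.85 with 114 tags, and 7 targets were called in all, RAD21, SMC3 and NIPBL among them. Under siRAD21 H3K4me1 was the only target called. The same was true of a site on chromosome 1 from 163881320 to 163882748, where 4 targets had been called. It was true of another on chromosome 12 from 51649450 to 51650921 with 6 targets, and of the last on chromosome 9 from 128786932 to 128789428 with 4. In all 4 the H3K4me1 region was still called under siRAD21 although no factor was.

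The sites with all 4 architectural proteins covered a wide range of cohesin strength. On chromosome 10 from 82253632 to 82255976, RAD21, SMC3 and CTCF had control −10 × log10(p) values of 1972.19, 2313.89 and 1934.39, and all 3 were called again under siRAD21, RAD21 at 324.08 and CTCF at 529.7. HNF4A was kept there and KLF5, with a control value of 286.33, was not. On chromosome 19 from 49889146 to 49891507 RAD21 was weak in control cells, at 58.06. Under siRAD21 RAD21, SMC3, NIPBL and KLF5 were not called there, while HNF4A, CTCF and H3K4me1 were called again.

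Sites without any of the 4 proteins or H3K4me1 were rare: 25 outside chromosome 8. The strongest was on chromosome 9 from 139035885 to 139037049. At the next, on chromosome 2 from 218474672 to 218476459, HNF4A had 77 control tags with a −10 × log10(p) of 277.27 and 46 tags with 312.99 under siRAD21, where KLF5 was not called. The third lay on the same chromosome from 28467370 to 28468575. All 3 overlapped an H3K4me1 region of the siRAD21 list, and neither factor was called under siRAD21 at the first and the third.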

How the data were processed

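Per the submitters' processing notes, reads were handled with CASAVA 1.4 and BWA, mapped to hg18, and peaks were called with MACS 1.4 (1.4.0rc2 per the file headers). Per the file headers, the p-value cutoff was 1e-05 and each library was set against an IgG library. The authors' deposited lists give, for each peak, its length in bp, its tag count, its p-value as −log10 multiplied by 10 (−10 × log10(p)), fold enrichment over the IgG control as a ratio, and a last column read as the false discovery rate in percent. The files name 9 of their 10 columns, and the 10th was identified by counting peaks under 5% against the labels. Libraries were grouped by their titles, because the siRNA tag in the labels carries rising numbers for siRAD21 libraries. The MYC antibody number is, from general knowledge, that of a mouse antibody, although titles name rabbit.

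From these lists, overlaps of 1 bp, summit distances, shares with Clopper-Pearson intervals, paired Wald intervals and Mantel-Haenszel differences over 5 strata were computed with Python 3.11.15, numpy 2.4.6, pandas 2.3.3 and scipy 1.17.1. The methods were tested on simulated data. Depth is the tag count after filtering that the authors' file headers give. The IgG library used for HNF4A and KLF5 had 0.460 of its control tags under siRAD21. Regions named are the 4 strongest per outcome (3 per other class), by the smaller of the HNF4A and KLF5 values, none on chromosome 8. With 1 library per target and siRNA no test between siRNAs was made. The sites, classes and rules were chosen with earlier results of these data known. No hg18 sequence or annotation was used.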

Additional observations from a re-analysis of the deposited data

How the results depend on the processing

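With 1 library per target and siRNA, no value has a replicate check, and a peak not called may be one too shallow to call. No paired analysis was possible because each target had 1 library per siRNA. Over 12 results, 30 of 70 alternative values stayed within the interval of the reported value (for the number of sites, within 1.5 times), 39 moved further and 1 reversed. The cause of a shift was not tested except where the setting itself changes which sites or peaks count.

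With no further factor allowed (n = 509), RAD21 was at 28.3%, SMC3 33.0%, NIPBL 44.4%, CTCF 16.7% and H3K4me1 91.9%. With the target's summit within 250 bp, RAD21 was at 24.6%, SMC3 29.2%, NIPBL 48.7%, CTCF 8.02% and H3K4me1 16.7%, and HNF4A and KLF5 were found again at 35.5% and 8.37%. With peaks of −10 × log10(p) of at least 100 (n = 407), RAD21 was at 28.3%, SMC3 38.1%, NIPBL 52.1%, CTCF 16.5% and H3K4me1 97.3%, and the factors were found again at 39.3% and 8.11%. With a false discovery rate under 5% (n = 634), RAD21 was at 35.3%, SMC3 45.1% and CTCF 15.0%. HNF4A and KLF5 were then found again at 53.2% and 7.73%, a difference of 45.4 points, and NIPBL could not be given because its control list holds 0 such peaks. With siRAD21 lists of equal length, HNF4A was found again at 20.3%, with a difference from KLF5 of 7.60 points.

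The share of HNF4A found again at co-bound sites minus that at KLF5-free peaks was 11.1 points without strata, 2.28 in strata of width and 11.3 in strata of fold enrichment. For KLF5 against HNF4A-free peaks it was 4.03 without strata and 3.35 in strata of fold enrichment. Some alternatives were chosen after seeing the data. With JUND left out of the limit (n = 1817), RAD21 was at 45.8%, SMC3 55.0% and NIPBL 69.7%. At sites where KLF5 was the stronger peak, HNF4A minus KLF5 was 8.79 points, and with equal list lengths as well it reversed to −9.83. That difference was above 0 in 8 of 9 settings, but most of these left the 2 siRAD21 lists at unlike lengths. The settings with equal lengths, which have unlike cutoffs of p, gave 7.60 and −9.83 points.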

Other observations

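The share of HNF4A peaks that were co-bound differed between chromosomes. It was highest on chromosome 19, where 75 of 360 HNF4A peaks (20.8%) were co-bound sites, followed by chromosome 22 (19.3%) and chromosome 17 (18.1%), and lowest on chromosome X (31 of 356, 8.71%) and chromosome 4 (9.11%). HNF4A was found again more often than KLF5 on each of the 23 chromosomes that held co-bound sites, with the deposited lists at their full length. The smallest gap of the 23 was on chromosome 3, with 30.1% for HNF4A and 15.1% for KLF5 over 73 sites.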
